A study of Mus musculus with 24 samples.

Results

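The 9 genes described here encode transporters of glutamate and GABA, the main excitatory and inhibitory transmitters of the brain. They are the vesicular glutamate transporters Slc17a6, Slc17a7 and Slc17a8, the vesicular GABA transporter Slc32a1, the plasma membrane glutamate transporters Slc1a1, Slc1a2 and Slc1a3, and the plasma membrane GABA transporters Slc6a11 and Slc6a13. They were chosen by symbol from 54235 features. Vesicular transporters load transmitter into synaptic vesicles, so that they mark the transmitter a neuron releases, whereas plasma membrane transporters clear transmitter from the extracellular space, a task known above all from astrocytes. The encoded proteins are commonly called VGLUT2 (Slc17a6), VGLUT1 (Slc17a7), VGLUT3 (Slc17a8), VGAT (Slc32a1), EAAC1 (Slc1a1), GLT-1 (Slc1a2), GLAST (Slc1a3), GAT-3 (Slc6a11) and GAT-2 (Slc6a13).

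Single-cell 3' RNA libraries had been made from primary motor cortex of Fos-CreER::Ai9 mice and from dorsal striatum of Arc-CreER::Ai9 mice. In both lines a tamoxifen-dependent recombinase is driven by an activity-regulated gene, and Ai9 is a reporter that recombination switches on. Mice in the early groups were trained on forelimb reaching for 2 days and those in the late groups for 8 days, and all received 4-hydroxytamoxifen (4-OHT), as did the untrained control mice. Tissue was taken 3 days after labelling, and the labels give no age. Each library held 1 hemisphere of 2 mice, a male and a female by the labels, and the hemisphere libraries of the same mice were summed to a pool, the unit of replication, with 2 pools per stage and region and 12 pools in all. Region and driver line cannot be told apart, and the labels describe no sorting for the reporter.

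Of 24 libraries, 23 were analysed, with 5260446 to 30470621 unique molecular identifiers (UMIs) each. For 1 striatal control pool, replicate 1, the right hemisphere was not analysed here and the left alone was used. From shared barcodes the pools were put into barcode group A (replicate 1 of control and of late in each region) and barcode group B (all others), a grouping that the labels do not name. Per 1e6 pairs of barcodes, library pairs within A shared 0.789 to 1.75 barcodes, pairs within B 0.036 to 0.565 and pairs between the groups 0 to 0.437. The pairs within A thus stood apart, while those within B overlapped those between the groups. The group A pools of a region also made up 1 of the 6 batches named in the labels, so group and batch cannot be told apart there. Class names stand for cells that resemble the type by marker genes. Of the 98612 cells kept after filtering, 553 in motor cortex and 577 in striatum stayed in clusters without a name. The named cells gave 11 cell classes in motor cortex and 14 in striatum that had at least 20 cells in every pool and were used, and 5 other classes, 2 striatal and 3 cortical, were smaller in some pool and are left out where classes are compared. Of the 204 combinations of class and marker gene checked, the marker was highest in its own class in 187. The clusters had been named from these same markers, so this count is no independent check of the names. In striatum it was 9 of 14 for GABAergic interneurons, 3 of 5 for committed oligodendrocyte precursors and 8 of 10 for astrocytes. The 9 transporters were left out of the clustering and of the marker lists. Levels are UMIs of a gene scaled to the total of the class in a pool (CPM), given as mean ± SD over 6 pools unless stated otherwise.

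The 250 bases upstream of a RefSeq start (GRCm38.p6) are shown for 3 transporters that were highest in astrocytes and for 2 vesicular transporters that were highest in neurons, because these 5 genes carry the cell type pattern described below. Capitals mark matches to TTGGC or its reverse GCCAA, a motif bound by nuclear factor I proteins, which 41.5% of 32851 promoter windows of the same length held. The windows lie at chr2:102706188-102706437 on the plus strand for Slc1a2, chr15:8710808-8711057 on the minus strand for Slc1a3, chr6:114130991-114131240 on the plus strand for Slc6a11, chr7:45163671-45163920 on the plus strand for Slc17a7 and chr2:158610508-158610757 on the plus strand for Slc32a1. The Slc1a2 window lies inside the gene as annotated for these counts, which spans chr2:102658659-102790784, so it stands before an internal start and not at the annotated beginning of the gene.
Slc1a2: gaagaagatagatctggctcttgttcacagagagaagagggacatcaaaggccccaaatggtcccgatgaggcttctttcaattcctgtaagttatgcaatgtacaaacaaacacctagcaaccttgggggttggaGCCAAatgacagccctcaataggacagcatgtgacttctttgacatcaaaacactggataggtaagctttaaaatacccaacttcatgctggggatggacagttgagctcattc
Slc1a3: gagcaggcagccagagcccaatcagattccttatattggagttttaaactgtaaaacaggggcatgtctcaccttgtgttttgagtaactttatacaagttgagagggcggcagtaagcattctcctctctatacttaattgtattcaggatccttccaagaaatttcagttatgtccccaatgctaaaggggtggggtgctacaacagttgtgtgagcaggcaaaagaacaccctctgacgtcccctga
Slc6a11: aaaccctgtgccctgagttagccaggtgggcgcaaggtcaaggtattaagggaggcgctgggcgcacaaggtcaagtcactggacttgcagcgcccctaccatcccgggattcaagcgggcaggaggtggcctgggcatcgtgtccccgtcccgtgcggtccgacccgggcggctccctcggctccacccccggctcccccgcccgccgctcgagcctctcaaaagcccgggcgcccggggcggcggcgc
Slc17a7: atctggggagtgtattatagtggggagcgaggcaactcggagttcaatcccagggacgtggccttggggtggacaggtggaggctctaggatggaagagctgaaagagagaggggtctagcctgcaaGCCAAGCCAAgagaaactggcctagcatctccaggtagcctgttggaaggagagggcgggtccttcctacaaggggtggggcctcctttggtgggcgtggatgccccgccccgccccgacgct
Slc32a1: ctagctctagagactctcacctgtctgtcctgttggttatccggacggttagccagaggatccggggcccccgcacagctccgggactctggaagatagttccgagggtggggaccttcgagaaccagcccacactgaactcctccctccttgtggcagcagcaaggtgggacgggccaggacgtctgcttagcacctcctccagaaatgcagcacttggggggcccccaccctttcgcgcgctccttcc
Among the astrocyte transporters only the Slc1a2 window held the motif, 1 time, and the Slc17a7 window held 2 adjoining copies. A GC box, GGGCGG or its reverse CCGCCC, was found 3 times each in the windows of Slc6a11 and Slc17a7 and 1 time in that of Slc1a3, against 32.7% of all windows with at least 1. The letters of a TATA box, TATAAA or the reverse TTTATA, were found only in the Slc1a3 window of these 5, against 12.4% of all windows. The match there was the reverse TTTATA, and whether it serves as a TATA box was not tested. In the Slc17a7 window 2 GC boxes overlapped by 1 base, and no match overlapped one of another motif. GC content was 44.8% in the windows of Slc1a2 and Slc1a3, 71.2% in that of Slc6a11, 61.2% in that of Slc17a7 and 62.4% in that of Slc32a1, against a median of 52.4% over all windows.

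Slc17a7 was the vesicular glutamate transporter of cortical glutamatergic neurons, at 1123.8 ± 187 CPM. The 6 pools read 1051 and 1411 CPM in control, 1305 and 1018 in early and 1007 and 951 in late, and 97.3% of these cells had at least 1 UMI. The stages overlapped. In the 10 other cortical classes the mean level was at most 33.6 CPM. Cortical microglia, which should lack the gene, were among them at 23.6 ± 11.3 CPM, with a UMI in 3.73% of cells. The level in cortical GABAergic interneurons, 8.98 to 22.7 CPM over the pools with an SD of 4.75, lay on average below that of microglia, while a UMI was found in 6.53% of these interneurons at a median of 6433.5 UMIs per cell, against a median of 1821 in microglia. Expression in interneurons could not be told from background here. In striatum no class reached 1 CPM except fibroblasts, whose 9.25 CPM came from the late pools (48.4 and 7.10 CPM) on 5 UMIs in all.

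Slc17a6, known as the vesicular transporter of many subcortical glutamatergic neurons, was present at 20.6 ± 3.79 CPM in cortical glutamatergic neurons and stood below 1 CPM in every other class used in both regions. Its level differed between subtypes of these neurons, which were named from markers other than the transporters. Near-projecting neurons, a deep layer type that sends few long axons, had the highest Slc17a6 in all 6 pools. Their pools read 107 and 153 CPM in control, 148 and 160 in early and 84.3 and 139 in late. Layer 6 intratelencephalic, layer 6b and layer 6 corticothalamic neurons held 3.65, 3.16 and 2.41 CPM, whereas an unnamed subtype led by Slc30a3 and Rorb, genes of upper and middle layer cells, held 47.0 ± 8.92 CPM. The same near-projecting neurons had the lowest Slc17a7 of the named glutamatergic subtypes, at 597 ± 88.3 CPM, and layer 6b neurons the highest, at 1554 ± 263 CPM, in all 6 pools. In the near-projecting subtype 46.1% of cells had a UMI of both genes, and the product of the single shares was 45.1%.

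**Figure D1:**
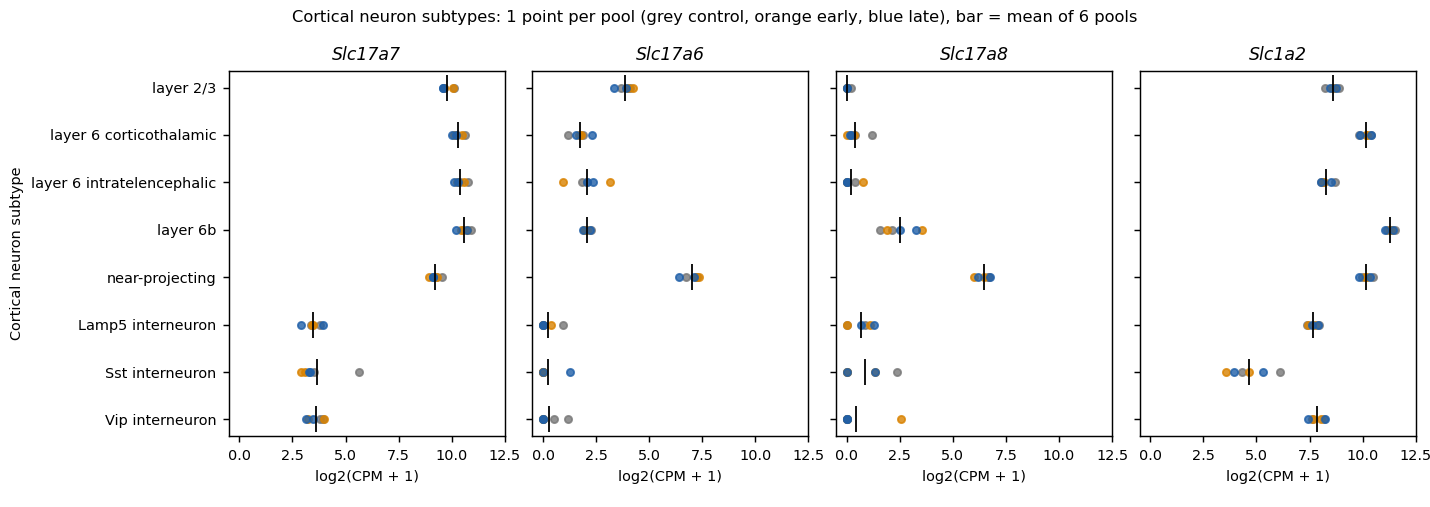
Levels of Slc17a7, Slc17a6, Slc17a8 and Slc1a2 as log2(CPM + 1) in the named cortical neuron subtypes with at least 20 cells in every pool, with 1 point per pool and a bar at the mean of 6 pools. Near-projecting neurons stood apart with high Slc17a6 and Slc17a8 and the lowest Slc17a7 of the glutamatergic subtypes, and layer 6b neurons had the highest Slc1a2.

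Slc17a8, the vesicular glutamate transporter known from neurons that release a second transmitter, had its highest class level in striatal cholinergic interneurons, at 489 ± 91.5 CPM. The pools read 350 and 572 CPM in control, 534 and 528 in early and 398 and 551 in late. The low value of each of control and late was the group A pool. Of these cells 81.4% had a UMI of Slc17a8, against 0.0160% of striatal microglia, while Slc32a1 stood at 3.18 ± 2.45 CPM there. In motor cortex GABAergic interneurons held 20.0 ± 7.62 CPM. Of the 677 UMIs of this class, 649 lay in 42 cells of a subtype named by its Cck markers, at 1060 ± 361 CPM. With 3 to 11 cells per pool, this subtype ranged from 590 to 1670 CPM. In 32 of the 42 cells both Slc17a8 and Slc32a1 were detected. Near-projecting glutamatergic neurons held Slc17a8 at 88.9 ± 17.9 CPM, from 63.7 to 108 CPM over the pools, while layer 6b neurons held 5.37 ± 3.53 CPM.

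Slc32a1 was high in each class of GABAergic neuron of both regions. It stood at 559 ± 125 CPM in cortical GABAergic interneurons, 481 ± 75.8 in striatal GABAergic interneurons and 393 ± 38.3 in striatal spiny projection neurons, the GABAergic output cells of the striatum. Striatal interneurons lay above spiny projection neurons in 6 of 6 pools. Striatal neuroblasts and progenitors, immature cells of the nearby subventricular zone, came next at 46.2 ± 11.2 CPM, from 30.2 to 56.0 CPM. Cortical microglia had a UMI in 0.261% of cells and striatal microglia in 1.33%. The interneuron subtypes differed: striatal Pvalb interneurons held 626 ± 79.0 CPM and striatal Sst interneurons 367 ± 72.0 CPM, without overlap between the ranges of 476 to 705 and 278 to 448 CPM. The D1 and D2 spiny projection neurons, of the direct and indirect pathway, held 378 ± 43.9 and 393 ± 36.2 CPM, and the eccentric type 465 ± 33.8 CPM.

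Slc1a2, the main glutamate transporter of astrocytes, exceeded 10 CPM in the mean of a barcode group in all 25 points of class and region. In some of these it could not be told from background. Astrocytes held 7211 ± 1756 CPM in motor cortex and 7004 ± 2249 CPM in striatum, with a UMI in 99.9% and 98.0% of cells. The cortical pools read 5822 and 9358 CPM in control, 7743 and 7270 in early and 4576 and 8496 in late. The striatal pools read 5028 and 8476 in control, 8689 and 7680 in early and 3409 and 8738 in late. In both regions the group A pools were the lowest 2 and did not overlap the others. Oligodendrocyte precursors, the dividing glia that form myelin-making cells, held 547 ± 93.0 CPM in cortex and 650 ± 154 in striatum.

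Cortical glutamatergic neurons also held Slc1a2, at 876 ± 185 CPM, with a UMI in 91.5% of cells against 5.68% of cortical microglia. Layer 6b neurons had 2512 ± 305 CPM and were highest of the named subtypes in all 6 pools, with values of 2238 and 2906 CPM in control, 2562 and 2469 in early and 2115 and 2782 in late. Near-projecting neurons followed at 1156 ± 186 CPM and layer 6 corticothalamic neurons at 1150 ± 196. Layer 2/3 neurons had 389 ± 61.6 CPM and layer 6 intratelencephalic neurons 312 ± 63.2. Among cortical interneurons Vip cells held 236 ± 55.2 CPM and Lamp5 cells 204 ± 33.0, against 29.2 ± 21.1 in Sst cells. Striatal spiny projection neurons held only 17.3 ± 3.02 CPM, beside 57.4 ± 66.4 CPM in striatal microglia. That microglial mean rested on late replicate 1 at 192 CPM, while the other 5 pools read 22.4 to 47.4 CPM. A UMI was found in 6.72% of spiny neurons at a median of 4329 UMIs per cell and in 4.21% of microglia at a median of 1820, so that a low level in spiny neurons could not be told from background. Striatal cholinergic interneurons held 136 ± 25.3 CPM.

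Slc1a3, a glutamate transporter of astrocytes and of the radial glia they derive from, stood at 3654 ± 220 CPM in cortical and 2657 ± 357 CPM in striatal astrocytes. The cortical pools lay between 3411 and 3966 CPM and the striatal pools between 2080 and 3106, without overlap. Fibroblasts of the brain's coverings and vessels were the class with the next level, at 1371 ± 244 CPM in cortex and 956 ± 412 in striatum, where the late group A pool was lowest with 290 CPM. Oligodendrocyte precursors held 442 ± 61.9 and 353 ± 36.3 CPM and ependymal cells, which line the ventricle, 412 ± 17.9. Neuroblasts and progenitors held 146 ± 17.0 CPM. Microglia held 145 ± 29.5 CPM in cortex and 118 ± 23.9 in striatum, with a UMI in 22.1% and 17.2% of cells, so that microglia are no background class for this gene. In striatum Pvalb interneurons held 47.5 ± 9.51 CPM, from 35.8 to 60.4, above the 0.761 to 10.8 CPM of Sst interneurons. Spiny projection neurons held 2.13 ± 1.02 CPM.

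Slc1a1, a glutamate transporter known from neurons, was highest in committed precursors of the oligodendrocyte lineage. Committed oligodendrocyte precursors, the stage between dividing precursors and myelinating cells, held 455 ± 140 CPM in cortex and 370 ± 124 in striatum. The cortical pools read 311 and 445 CPM in control, 562 and 463 in early and 294 and 653 in late. Dividing precursors held 158 ± 40.0 and 135 ± 45.7 CPM. The striatal oligodendrocytes fell into 2 clusters, 158 cells at 528 ± 205 CPM with a median of 5631 UMIs per cell and 181 cells at 2.94 ± 4.78 CPM with a median of 2734 UMIs. The first cluster had Enpp6 and 9630013A20Rik, also leading genes of the committed precursors in cortex, among its top genes. The 209 cortical oligodendrocytes, a class not used, held 18.9 CPM summed over pools, so that the mature cells of the second cluster and of cortex lay below every neuron class. Endothelial cells, which line the vessels, held 177 ± 72.9 CPM in cortex and 185 ± 91.7 in striatum. Neuron classes lay lower, between 49.4 and 67.9 CPM. Microglia were near 0, at 1.09 and 2.13 CPM. The gene lies on the plus strand at chr19:28835049-28913960 and overlaps 4430402I18Rik, a protein-coding gene on the minus strand that spans chr19:28893042-28967800. That gene followed a like pattern over the 25 points of class and region (r = 0.904 of mean log2 levels, a description across cell types), although it held 73.1 CPM in ependymal cells where Slc1a1 held 2.26. Whether the counting used strand is not given in the sources used here, so Slc1a1 values are uncertain to that extent.

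**Figure D2:**
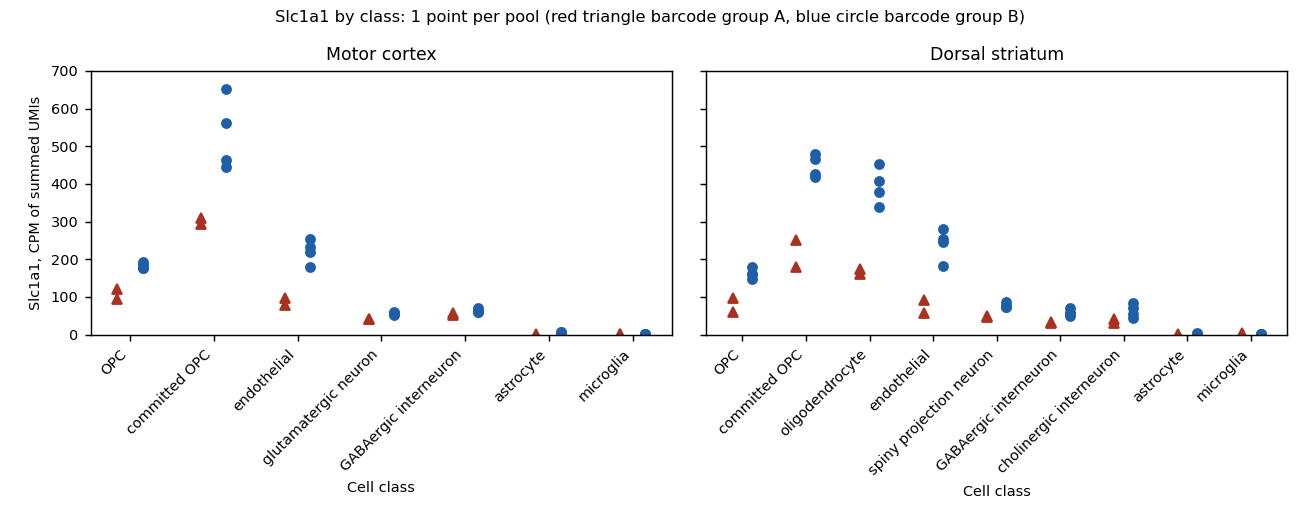
Slc1a1 in CPM by cell class, with 1 point per pool, group A pools as red triangles and group B pools as blue circles. Committed precursors were the highest class, and the group A pools lay below all group B pools in 12 of the 15 classes over 10 CPM and above them in striatal fibroblasts, which are not drawn.

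Slc6a11, the GABA transporter of astrocytes, stood at 547 ± 65.4 CPM in cortical astrocytes and 293 ± 94.6 CPM in striatal ones. The cortical pools read 574 and 606 CPM in control, 472 and 627 in early and 527 and 479 in late, and the striatal pools 228 and 413, 356 and 302, and 146 and 314. The highest striatal pool lay below the lowest cortical pool. The next class was that of oligodendrocyte precursors, at 36.0 ± 3.92 and 43.5 ± 7.16 CPM, and ependymal cells held 19.7 ± 4.45.

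Slc6a13, a GABA and taurine transporter known from the meninges and other barrier tissues, belonged to fibroblasts, at 1525 ± 549 CPM in cortex and 1297 ± 284 in striatum. The cortical pools read 1047 and 2307 CPM in control, 2124 and 1378 in early and 1186 and 1111 in late. Cortical pericytes, contractile cells of capillaries, were the only other class used that lay above 4 CPM, at 65.3 ± 30.8. Striatal pericytes, with too few cells in some pools to be used, held 151 CPM on 256 UMIs summed over pools. In astrocytes, where the GABA transporters of the plasma membrane are often sought, Slc6a13 was at or near 0 in both regions.

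**Figure D3:**
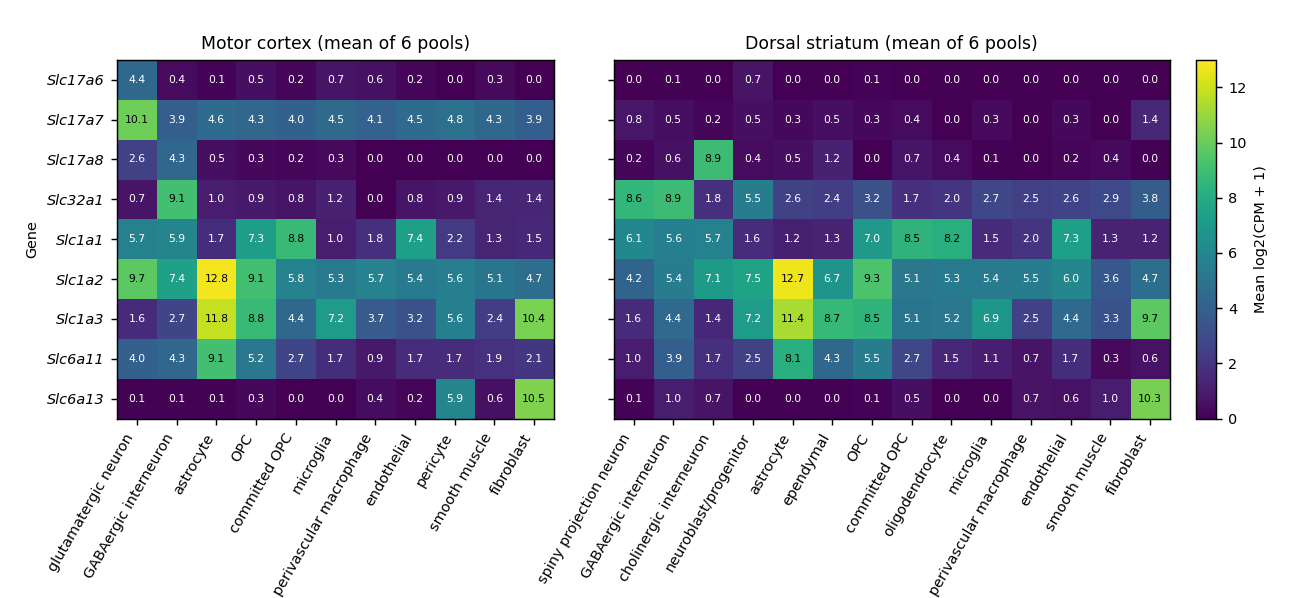
Mean log2(CPM + 1) over 6 pools of each transporter (rows) in each cell class (columns) of motor cortex and dorsal striatum, with the value printed in each cell. The vesicular transporters were high in neuron classes, Slc1a2, Slc1a3 and Slc6a11 in astrocytes, Slc1a1 in oligodendrocyte precursors, striatal oligodendrocytes and endothelium, and Slc6a13 in fibroblasts.

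Neighbouring classes in these orders were compared by an exact two-sided sign-flip permutation test over the 6 pools, 90 pairs in motor cortex and 117 in striatum. The orders were set by the mean log2 levels of the same pools, so each pair and its direction came from the tested values. The counts below are therefore descriptions. The smallest p that 6 pools allow is 0.03125, and after Benjamini-Hochberg adjustment the smallest values were 0.128 and 0.192, so that 0 pairs could be called. In cortex 22 and in striatum 19 pairs reached the smallest unadjusted p. That p is reached only where the higher class was higher in 6 of 6 pools, so the second statement adds nothing to the first. For the highest class against the next, the higher class was higher in 6 of 6 pools for 9 of 9 members in cortex. In striatum this held for 7 of 9, all but Slc17a7 and Slc1a1. Slc17a6, among these 7, was very low in every striatal class used. The neighbours that did not differ in every pool included endothelial cells and dividing precursors for Slc1a1, at 5 of 6 pools in cortex and 4 of 6 in striatum.

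Pairs of classes from the same pools were then compared with edgeR's quasi-likelihood test over all genes with the pool as a block, where called means an adjusted p (Benjamini-Hochberg) under 0.05. Between cortical glutamatergic neurons and GABAergic interneurons 8 of 8 members tested were called, 3 higher and 5 lower, against 68.9% of all genes. In log2 change Slc17a7 was higher by 6.40 ± 0.11 (SE, edgeR adjusted p = 2.43e-29) and Slc1a2 by 2.41 ± 0.05, and Slc32a1 fell by 9.76 ± 0.10 on the log2 scale. Slc17a6 was the other member called higher. The interneurons held 8 UMIs of it in all, so that its fitted change depends on the prior count and is not given, and its call adds no weight to the count. Slc17a8 fell by 1.87 and Slc1a3 by 1.33. Slc1a1 fell by 0.16 and Slc6a11 by 0.26, both small, and each lost its call without the filter on low counts. Between spiny projection neurons and striatal GABAergic interneurons 5 of 5 were called, against 74% of all genes. Slc1a1 was higher in spiny neurons by 0.47 ± 0.07 on the log2 scale, and Slc32a1 fell by 0.28, Slc1a2 by 1.31, Slc1a3 by 3.41 and Slc6a11 by 3.73. Slc1a2 in both classes lay near or below the level of striatal microglia, 43.6 CPM summed over pools. Its call therefore adds no weight to the count.

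Between astrocytes and oligodendrocyte precursors the same test called 5 of 5 members in cortex, against 65.3% of all genes, and 4 of 4 in striatum, against 61.9%. On the log2 scale Slc1a2 was higher in astrocytes by 3.95 ± 0.13 in cortex and 3.67 ± 0.11 in striatum, Slc1a3 by 3.30 and 3.19, and Slc6a11 by 4.18 and 3.08. Slc1a1 was called lower on 20 and 12 UMIs in all astrocytes of cortex and of striatum. It passed the filter on low counts through the precursors, so its fitted changes are not given and its calls add no weight to the counts. Slc17a7 was higher by 0.52 in cortical astrocytes, at levels near that of cortical microglia in both classes, and its call was lost with other size factors, with DESeq2, with a stricter cell filter and without the pool as a block. All these shares of called members stand beside a background in which most genes differed.

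Of the 22 other genes of glutamate and GABA uptake and metabolism that were listed, 18 were tested between cortical astrocytes and precursors, 13 higher and 3 lower in astrocytes, with a median log2 change of 0.99 against -0.03 over all genes, of which 31.2% were higher and 34.1% lower. In striatum 11 were higher and 4 lower of 19, with a median of 0.63 against 0.06 over all genes, of which 33.1% were higher and 28.8% lower. In both regions Glul, which makes glutamine from glutamate, was higher in astrocytes, by 4.81 and 4.21 on the log2 scale, and so was Slc7a11, the cystine and glutamate exchanger. Slc25a18, a mitochondrial glutamate carrier, was higher by 4.98 in cortex. In cortical neurons 4 were higher and 11 lower of 20 in glutamatergic neurons, with a median of -0.33 against -0.03 over all genes, of which 34.1% were higher and 34.8% lower. Abat, which breaks GABA down, fell by 3.44 on the log2 scale. In striatal neurons 1 was higher and 12 lower of 17 in spiny projection neurons, with a median of -1.03 against 0.03 over all genes, of which 37.9% were higher and 36.1% lower. Slc1a6, a neuronal glutamate transporter, fell by 4.75 on the log2 scale.

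The regions were compared class by class over all 12 pools with stage and barcode group in the fit, in 9 classes shared by both. Of 32 pairs of member and class 11 were called by edgeR, 9 higher and 2 lower in motor cortex, against 11.8% of all gene and class pairs. The shares differed between classes: in GABAergic interneurons 31.6% of all genes were called and in astrocytes 33.4%, but in microglia 1.05%, in oligodendrocyte precursors 0.963% and in endothelial cells 0.499%. Of the 11 calls 5 concerned Slc17a7, which was higher in cortex in GABAergic interneurons, astrocytes, endothelial cells, microglia and oligodendrocyte precursors. In striatum these classes held 8, 3, 1, 3 and 2 UMIs of it in all, so it passed the filter on low counts through the cortical pools and the fitted changes depend on the prior count. These 5 calls therefore add no weight to the count of 11. The cortical levels were at most 27.2 CPM on average, near that of cortical microglia. The striatal libraries held too few cells named glutamatergic neurons for these to be used as a class. The part of free RNA in these calls was not tested.

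**Figure D4:**
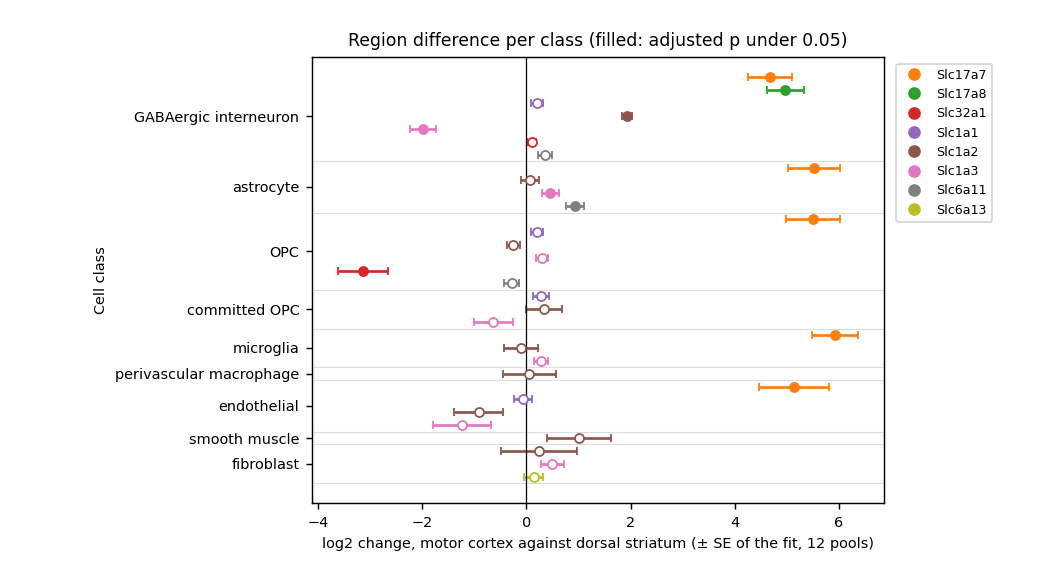
Log2 change between motor cortex and dorsal striatum for each member tested in each shared class, with the standard error of the edgeR fit over 12 pools. Filled points are called at adjusted p under 0.05: Slc17a7 stood to the right in 5 classes, where its fitted change rests on 1 to 8 striatal UMIs, and Slc6a11 and Slc1a3 were higher in cortical astrocytes.

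In astrocytes Slc6a11 was higher in motor cortex by 0.93 ± 0.17 on the log2 scale (edgeR adjusted p = 9.12e-05) and Slc1a3 by 0.46 ± 0.16 (adjusted p = 0.0290), while Slc1a2 differed by 0.07 ± 0.17 (adjusted p = 0.809). The Slc1a3 call was lost under the stricter cell filter (edgeR adjusted p = 0.0828), without the barcode group term (0.0988) and in 5 of the 12 fits with 1 pool left out. Within the 2 labelled batches that held both regions, the early pools read 627 CPM in cortex and 302 in striatum for Slc6a11, and the late pools 479 and 314, and for Slc1a3 they read 3424 and 2627, and 3411 and 2948. The striatal astrocytes made up 2 clusters. The cluster led by Gpr37l1, Htra1 and Gja1 (2100 cells) held 9136 ± 2346 CPM of Slc1a2, 3388 ± 268 of Slc1a3 and 417 ± 77.1 of Slc6a11. The cluster led by Igfbp5, Aldoc and Fabp7 (1237 cells) held 4382 ± 1347, 1831 ± 239 and 142 ± 50.9 CPM. Without the second cluster, an alternative chosen after seeing the data, the region difference fell to 0.37 for Slc6a11 (adjusted p = 0.122) and to 0.09 for Slc1a3 (adjusted p = 0.780), and neither was called. Of the pathway list, 9 of 17 tested genes were higher and 2 lower in cortical astrocytes, against 15.6% higher and 17.7% lower of all genes, led by Slc25a18 at 4.15 and by Slc38a1, a glutamine transporter, which fell by 4.79.

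In GABAergic interneurons Slc1a2 was higher in motor cortex by 1.93 ± 0.10 on the log2 scale (edgeR adjusted p = 8.86e-11), at 173 against 42.5 CPM, and within the 2 batches the pools read 170 against 34.5 and 209 against 45.7. Slc17a8 was called higher on 9 UMIs in all striatal pools, so that its fitted change depends on the prior count and its call, too, adds no weight to the count of 11, with 13.1 against 0 CPM and 22.3 against 0.738 CPM within the batches. The class held different cells in the regions. Of 4442 cortical cells 1896 were named Vip and 1396 Lamp5, names that no striatal subtype received, while 866 of 2260 striatal cells were named Sst and 558 Pvalb. In the subtypes named in both, Slc1a2 stood at 29.2 ± 21.1 CPM in cortical and 34.9 ± 14.7 in striatal Sst cells. In Pvalb cells it stood at 25.8 ± 25.2 and 38.7 ± 12.7. Microglia held 45.7 CPM of it in cortex and 43.6 in striatum, summed over pools. These subtype levels could therefore not be told from background. For Slc17a8, the 42 cells that held 649 of the 677 cortical UMIs were a subtype named only in cortex. The part of this make-up in the region differences was not tested. Slc1a3 fell by 1.98 ± 0.25, with 6.24 ± 3.89 CPM in cortex and 21.0 ± 4.26 in striatum. Slc32a1 differed by 0.10 ± 0.09 and Slc6a11 by 0.36 ± 0.13 (adjusted p = 0.0516), and neither was called. In oligodendrocyte precursors Slc32a1 was called lower in cortex by 3.13 on the log2 scale. The striatal pools read 8.16 and 4.62 CPM in control, 6.44 and 7.27 in early and 42.9 and 3.44 in late. Late replicate 1 thus stood apart. Microglia held 7.39 CPM of it in striatum and 1.36 in cortex, summed over pools. Apart from that pool, the precursors of both regions lay near the microglial level, so this call, too, adds no weight to the count of 11. The call was lost without motor cortex late replicate 1.

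The barcode groups were compared after the values had been seen. Slc1a1 was lower in the group A pools, without overlap, in 12 of 15 classes in which either group mean exceeded 10 CPM, and higher in 1, striatal fibroblasts (12.3 against 0 CPM). Of all gene and class pairs over that level 26.9% were lower and 17.9% higher in A without overlap. Among the other members Slc1a2 was lower in 7 and higher in 2 of 25 classes, and Slc1a3 lower in 3 and higher in 8 of 22. Slc32a1 was lower in 4 and higher in 2 of 10, and Slc6a11 lower in 2 and higher in 2 of 11. Slc17a6 was lower in 1 of 1, Slc17a8 in 1 of 2 and Slc6a13 in 2 of 3, and these were higher in 0. Slc17a7 was lower in 0 and higher in 0 of 12. In cortical endothelial cells the A pools read 79.1 and 98.2 CPM and the B pools 181 to 254, and in striatal endothelial cells 58.3 and 91.4 against 182 to 279. Over both regions, with stage and region in the fit, Slc1a1 was higher in B by 1.46 ± 0.23 on the log2 scale in endothelial cells (edgeR adjusted p = 0.000229), by 0.84 in committed precursors and by 0.68 in dividing precursors. Slc1a2 was higher by 0.84 ± 0.21 in astrocytes. In all, 11 of 32 member and class pairs were called, against 32.4% of all gene and class pairs, so the members' share was close to that of all genes. The stricter cell filter gave 6 calls of 28 pairs, and with 1 pool left out the count ranged from 6, without dorsal striatum late replicate 2, to 13. It was 7 without dorsal striatum late replicate 1 and 7 without motor cortex late replicate 2. Among them Slc1a2 fell by 1.79 and Slc1a3 by 2.18 in endothelial cells. The groups overlapped there for Slc1a2 in both regions, from 114 to 337 CPM in A against 12.9 to 133 in B in striatum and from 57.1 to 201 against 11.8 to 69.0 in cortex. The striatal change of Slc1a2 in endothelial cells alone turned from -2.43 to 0.66 under the stricter cell filter. Summed astrocyte markers in endothelial cells were 531 and 234 CPM in the striatal A pools, against 110 to 259 in B, and 403 and 139 in the cortical A pools, against 157 to 234 in B, and their part was not tested. The counts were 14 of 44 in striatum (25.4%), where DESeq2 called 5, and 6 of 45 in cortex (10.8%), where the stricter cell filter called 2. Without dorsal striatum late replicate 1 or late replicate 2 the striatal count was 1. In cortex the count was 10 without either control pool, 1 without late replicate 1 and 2 without late replicate 2.

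**Figure D5:**
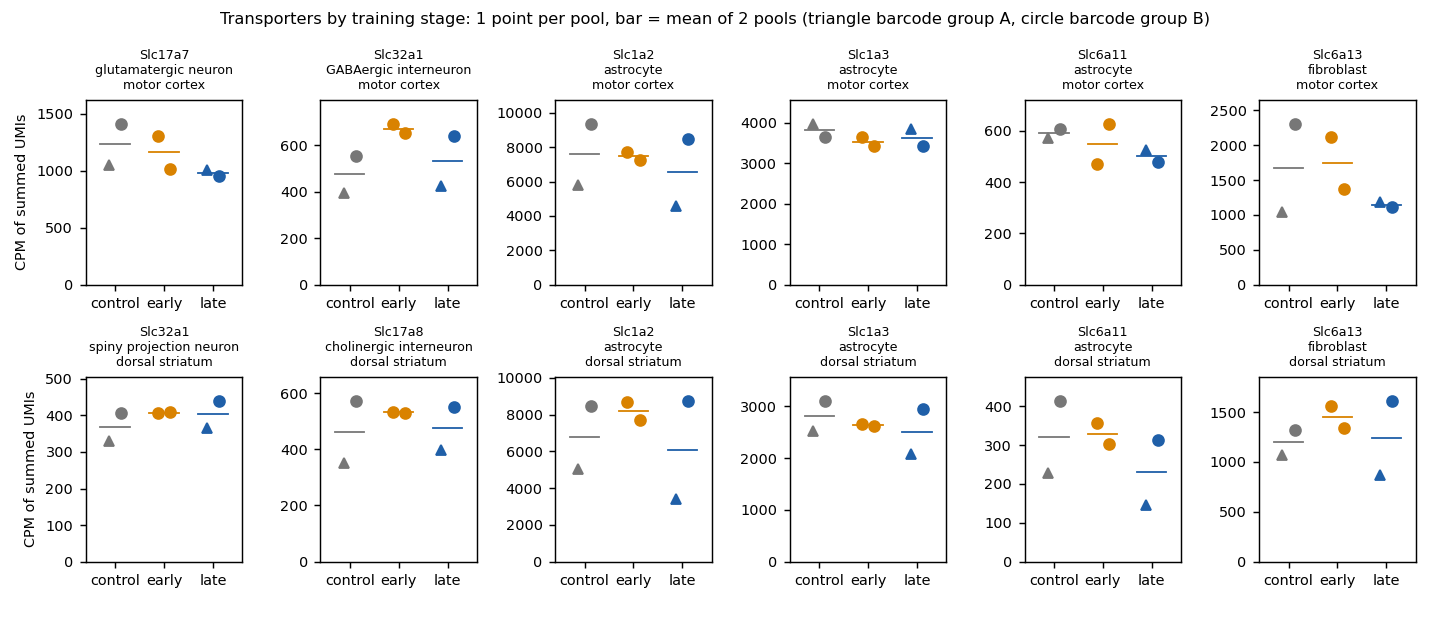
CPM of summed UMIs by training stage for 6 transporters in a class each of motor cortex (top) and of dorsal striatum (bottom), with 1 point per pool, triangles for group A, circles for group B and a bar at the mean of 2 pools. In all 6 striatal panels the group A pool was the lower pool of control and of late.

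By edgeR with the filter on low counts, 0 transporters were called between training stages in any class used. Early against control gave 0 of 45 pairs in cortex (edgeR adjusted p under 0.05, against 0.0281% of all gene and class pairs) and 0 of 44 in striatum (0.0416%), and 8 and 3 pairs had an unadjusted p under 0.05. Late against control gave 0 of 45 (0.0344%) and 0 of 44 (0.0375%), where 7 and 6 pairs passed 0.05 before adjustment, and late against early gave 0 of 45 (0.0177%) and 0 of 44 (0.02%), with 4 and 2. DESeq2 called 0 in each. Other settings did give calls. A stage fit with 1 pool left out has only 1 pool in that stage, so its spread comes from the other stages. Without the filter on low counts, Slc1a2 was called in striatum in endothelial cells (early and late), smooth muscle cells and microglia (late), and in cortex in smooth muscle cells (early) and endothelial cells (late). The stricter cell filter called Slc1a2 in cortical smooth muscle cells in the early comparison. With any 1 of the 6 cortical pools left out, 1 or 2 pairs were called in the early and in the late comparison, and in striatum up to 3 were called in the late comparison, without early replicate 1. Of the 35 calls over all settings, late against early included, 31 concerned Slc1a2 in endothelial cells, smooth muscle cells, perivascular macrophages or microglia, 3 Slc17a8 in GABAergic interneurons and 1 Slc32a1 in oligodendrocyte precursors. Against control, every such Slc1a2 call was of a lower level in cortex and of a higher level in striatum. The settings refit the same pools, so this shared direction adds no weight. In striatal smooth muscle cells no member passed the filter on low counts in the main fits. Shares of all genes called under these settings are not given here, so the 35 calls are not set against a background. Summed astrocyte markers were high in the pools where Slc1a2 was high in smooth muscle cells and striatal microglia. In endothelial cells they followed Slc1a2 only in part. Striatal late replicate 1 held 337 CPM of Slc1a2 with 531 CPM of markers there, but control replicate 2 held 12.9 with 228 CPM. Cortical perivascular macrophages held 141 and 179 CPM of Slc1a2 in control, 38.1 and 27.4 in early and 120 and 5.91 in late. Their markers read 146 and 173, 57.1 and 13.7, and 78.5 and 59.1 CPM. In striatal late replicate 1, smooth muscle cells held 155 CPM of Slc1a2 with 260 CPM of markers, where the other pools held 3.29 to 35.7 CPM of markers, and microglia held 192 with 268 CPM, where the others held 22.8 to 39.3. In cortical control replicate 2, smooth muscle cells held 196 CPM of Slc1a2 with 158 CPM of markers, where the others held 0 to 75.6. The part of these markers in the calls was not tested. The median standard error of the member changes was 0.332 on the log2 scale in the early comparison in cortex and 0.301 in striatum. The pathway list gave 0 calls in each stage comparison.

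Among the values behind these tests, Slc17a7 in cortical glutamatergic neurons read 1051 and 1007 CPM in the control and late pools of 1 batch and 1411 and 1305 in the control and early pools of another. Slc17a8 in cortical GABAergic interneurons read 27.1 and 29.0 CPM in control, 18.8 and 13.1 in early and 9.74 and 22.3 in late, with log2 changes of -0.97 and -0.80 and edgeR adjusted p of 0.935 and 1.00. Nearly all UMIs of this gene in the class lay in the 42 cells named by their Cck markers, so these levels rest on few cells. Slc1a2 in cortical pericytes was lower in early by 1.80 on the log2 scale (adjusted p = 0.144), the smallest adjusted p of the stage comparisons, with 62.1 CPM (2 UMIs) and 85.5 CPM in control and 23.3 and 17.6 in early. In cortical endothelial cells Slc1a2 was lower in late by 1.79 (adjusted p = 0.362), with 201 and 69.0 CPM in control and 57.1 and 17.4 in late. Summed astrocyte markers in those endothelial cells were 403 and 234 CPM in control and 139 and 232 CPM in late. Their part in the difference was not tested.

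The difference of the stage effects between regions was called for 0 of 35 pairs in the early and 0 of 35 in the late comparison, against 0.00926% and 0.00529% of all pairs, and DESeq2 called 0 in both. Among them 6 and 7 pairs had an unadjusted p under 0.05. Contralateral against ipsilateral hemisphere of the trained pools gave 0 of 36 pairs in cortex (0.0743% of all) and 0 of 32 in striatum (0.0241%), where 3 and 3 pairs passed 0.05 before adjustment and DESeq2 called 0. In Slc1a2 of striatal microglia the contralateral libraries were lower by 1.05 on the log2 scale (edgeR adjusted p = 0.716).

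Detection of pairs of transporters in the same cells was set beside the product of their single shares. In cortical glutamatergic neurons Slc17a7 and Slc17a6 were both found in 12.2% of cells, where the product was 12.3%. In cortical astrocytes 98.6% of cells had Slc1a2 with Slc1a3, the same as the product at this precision, and 60.1% had Slc1a3 with Slc6a11, beside a product of 60.1%. In striatal astrocytes the shares were 94.0% beside a product of 93.7%, and 41.6% beside 40.8%. The second of these pairs lay above the product in 6 of 6 striatal pools, also after each cell was thinned to 1500 UMIs (31.1% beside 30.1%), and the first in 2 of 6 pools and in 6 of 6 after thinning. Striatal neuroblasts and progenitors had both Slc1a2 and Slc1a3 in 10.8% of cells, above the product of 5.47%, and after thinning in 4.401% beside 2.61%. Of the cortical GABAergic interneurons 5.98% had Slc17a7 with Slc32a1, beside a product of 5.88%, and after thinning this share was 0.952%. In those interneurons the pair lay above the product in 4 of 6 pools and, after thinning, in 1 of 6. There Slc32a1 with Slc17a8 was found in 1.03% of cells beside 0.945%, above the product in 5 of 6 pools and after thinning in 4 of 6. Thinning moved the joint share by more than the spread over pools for 7 of 8 pairs. Microglia of cortex had Slc1a2 with Slc1a3 in 1.47% of cells.

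The genes whose class pattern was most like that of each member were found by Pearson correlation of mean log2 levels over 25 points of class and region and 16190 genes. The points share libraries, so the correlations are given as descriptions. Slc17a7 was most like Nrn1 (r = 0.974), Trbc2 (0.954) and Neurod2 (0.943). Slc17a8 was most like Gm15496 (0.966) and then Slc18a3 (0.958) and Chat (0.957), the vesicular transporter and the synthetic enzyme of acetylcholine. Slc32a1 was most like Syt2 (0.905), Pdyn (0.901) and Sp9 (0.883), and Slc17a6 was most like Igfn1 (0.974), Ntn5 (0.959) and Gm28928 (0.957). Slc1a2 was most like Slc6a11 (0.911), Cldn10 (0.901) and Emx2os (0.897), and Slc6a11 was most like Aldoc (0.937), Gdpd2 (0.925) and Frmpd1 (0.915). Slc1a3 was most like Gm37310 (0.952), which lies inside Slc1a3 on the same strand and may share its reads, then Pdpn (0.891) and F3 (0.891). Slc1a1 was most like Gm37767 (0.958), Dnm3 (0.936) and Ppp1r16b (0.928), and Slc6a13 was most like Ccl19-ps1 (0.990), Gm30624 (0.986) and Dcn (0.982), a matrix gene of fibroblasts.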

How the data were processed

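UMI counts per gene and cell were deposited by the authors as filtered matrices, made with Cell Ranger 3.1.0 per the submitters' processing notes, with GRCm38 as the build; strand use and the kit of each library are not given in the sources used here. Gene and barcode lists, deposited as other text, served only as row and column names. The members and lists were chosen with earlier results of these data known.

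Barcodes were kept from 500 genes and 1000 UMIs upward when mitochondrial UMIs made up 20% or less (103715 of 127901 barcodes), and 5103 presumed doublets (4.92%) were removed with Scrublet. Each region was clustered with scanpy 1.11.5 (2000 variable genes, 40 components, 20 neighbours, Leiden resolution 1.5) without the 9 members. Clusters were named from marker lists, by naming rules set after the clusters had been seen, and classes needed 20 cells in every pool. Raw UMIs were summed per class and pool. Levels are CPM, and log2 levels use a pseudocount of 1. Counts were tested with edgeR 4.0.16 (quasi-likelihood, TMM, Benjamini-Hochberg adjustment over all genes of a class), with barcode group as a covariate in stage and region fits, after the code had been tested on simulated data. Class contrasts and hemispheres used the pool as a replicate block, since both hemispheres and all classes of a pool come from the same mice. Alternatives were DESeq2 1.42.0, other size factors, no filter on low counts, a stricter cell filter, no barcode group term and each pool left out. The barcode group comparison, the cluster left out and the within-batch values were added after seeing the data. Every member was named; of the pathway list at most 5 called genes per comparison and class with the smallest adjusted p could be named, and for each member the 3 genes most like it. Pools were separate mice, so p-values measure the spread between pools, and UMI numbers limit the precision of low levels.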

Additional observations from a re-analysis of the deposited data

Results flagged for a closer look

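Some classes had fewer than 20 cells in at least 1 pool and entered no comparison. The transporter levels given here stood more than 10 times above those of microglia, on at least 20 UMIs. Others in these classes did not pass that rule. Some of those still stood above microglia, such as Slc1a2 in cortical neuroblasts or progenitors at 173 against 45.7 CPM. Values are summed over pools, with exact 95% Poisson intervals that cover counting error only. The 224 cells named glutamatergic neurons in the striatal libraries held Slc17a7 at 1174.55 CPM (1127.6 to 1222.9) and Slc17a6 at 19.9161 CPM (14.2 to 27.1). They held Slc1a2 at 705.527 CPM (669 to 743), Slc1a1 at 46.8028 CPM (37.8 to 57.3) and Slc6a11 at 23.4014 CPM (17.2 to 31.1). Single pools, of 10 to 82 such cells, ran wider: 1113 to 1238, 0 to 78.5, 552 to 870, 13.6 to 83.5 and 17.4 to 36.2 CPM, in this order. The labels do not say whether these cells lay within striatum or in adjoining tissue. The 1104 striatal pericytes held Slc6a13 at 151.163 CPM (133 to 171), with pools from 0 to 189 CPM. The 166 cortical neuroblasts or progenitors held Slc32a1 at 257.786 CPM (200 to 327), with pools from 113 to 396 CPM. The 209 cortical oligodendrocytes held Slc1a1 at 18.8718 CPM (11.5 to 29.1), with pools from 0 to 46.1 CPM.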

How the results depend on the processing

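Without the filter on low counts, 20 region differences were called in place of 11, 3 late against control and 1 early against control in striatum, 1 each in cortex, 1 hemisphere difference in striatum, and 1 early and 3 late differences of stage effects between regions. The stricter cell filter called 1 early against control in cortex, 6 barcode group differences over both regions and 2 in cortex, and DESeq2 called 5 group differences in striatum. After thinning, 2 pairs of transporters in place of 1 were found together above the product in every pool. The log2 change of Slc1a2 in endothelial, barcode group B against A in dorsal striatum, was 0.66 under the stricter cell filter, against -2.43. Shares of all genes called under these settings are not given here, so these counts are not set against a background. The causes were not tested.

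With 1 pool left out, 8 to 9 of 9 members in striatum and 9 to 9 in cortex had the same highest class as with all pools, and 16 to 18 of 18 pairs of member and region the same highest subtype. Counts of calls ranged from 4 to 4 and 4 to 5 for the glial contrast in striatum and cortex, 5 to 6 and 7 to 8 for the neuron contrast, and 9 to 14 for the region difference. For stage they ranged from 0 to 1 (early, striatum), 1 to 2 (early, cortex), 0 to 3 (late, striatum), 1 to 2 (late, cortex) and 0 to 1 for late against early in each region. Each of these stage fits left 1 pool in a stage, so its spread came from the other stages. Shares of all genes called in these fits are not given. In striatum the late comparison gave 3 without early replicate 1, 2 without early replicate 2 or late replicate 2 and 1 without control replicate 2, and the early one gave 1 without early replicate 1. The ranges were 0 to 0 (striatum) and 0 to 1 (cortex, without either early pool) for hemispheres, 0 to 1 and 0 to 2 for stage effects between regions, and 6 to 13, 1 to 18 and 1 to 10 for group differences over both regions, in striatum and in cortex.

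Without the replicate block, 4 glial calls in each region, 4 neuron calls in striatum, 7 in cortex and 0 hemisphere calls in each region were made. Slc1a3 in astrocytes lost its region call under the stricter filter (edgeR adjusted p = 0.0828) and without the barcode group term (0.0988).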
